A study of Homo sapiens with 6 samples.

Results

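The 39 protein-coding HOX genes of the human HOXA, HOXB, HOXC and HOXD clusters were followed in LS174T cells, a cell line from a human colorectal adenocarcinoma that is labelled as resembling goblet cells, the mucus-secreting cells of the gut. They are all protein-coding rows of the count table whose symbol is HOX, a cluster letter and a paralogue number, 39 of 58735 named genes. There were 11 members in HOXA, 10 in HOXB, 9 in HOXC and 9 in HOXD. The groups were 3 poly(A) RNA libraries whose genotype label is FXYD3 knockout and 3 libraries labelled WT, with no treatment, time or further allele given. FXYD3 is a small membrane protein of the FXYD family, whose members regulate the Na,K-ATPase. The labels do not say how the knockout was made, whether it is 1 clone, or whether a group's libraries are separate cultures. The p-values therefore cover only library-to-library spread, part or all of which may be technical.

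HOX genes encode homeodomain transcription factors that set position along the body axis, and the order of the genes along each cluster matches the order of the body levels at which they are expressed. Anterior members lie at one end and posterior members at the other, and the posterior ones are the HOX genes most typical of the hindgut and colon. Polycomb complexes keep HOX genes silent through H3K27 methylation, MLL complexes keep them active, CTCF and cohesin separate active from silent stretches of a cluster, and retinoic acid and CDX factors act upstream of them in the embryo.

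Named genes received 15417232 to 19453217 counts in the knockout-labelled libraries and 16507805 to 17596549 counts in the WT libraries. Pearson's r of log2 expression across genes was 0.989 to 0.992 between libraries of the same group and 0.962 to 0.967 between libraries of different groups. FXYD3 itself had 79, 131 and 85 counts in the knockout-labelled libraries, against 54, 91 and 55 in the WT libraries (log2 fold change 0.54, SE 0.20, adjusted p = 0.0522 by edgeR's quasi-likelihood test, 0.0472 with a replicate block and 0.00313 without WT replicate 2). It passed as higher in 5 of 16 alternatives. No reduction of the transcript backs the genotype label, so these libraries are called knockout-labelled throughout. All 10 intestinal epithelial markers were read in both groups, with a summed level of 10972 to 11710 CPM (counts per library size, scaled by edgeR) in knockout-labelled and 10055 to 11325 CPM in WT libraries, most of it the keratins KRT8 and KRT18. Of these 10, LGALS4 was higher, and MUC2, the main goblet cell mucin, and CDH1 fell, with log2 fold changes of 0.22, -0.99 and -0.36 (adjusted p = 0.00822, 3.51e-05 and 0.00127 by edgeR). Of other cell types, PTPRC, CD3E, CD79A, PECAM1, COL1A2 and HBA1 were at 0 in all libraries. The 6 fibroblast markers summed to 6.48 to 8.27 CPM in the knockout-labelled libraries and 1.29 to 2.11 CPM in the WT libraries, of which COL3A1 had 293 counts in the knockout-labelled and 16 in the WT libraries. The 4 leukocyte markers summed to 0.238 to 0.516 CPM in the knockout-labelled libraries and 2.64 to 4.50 CPM in the WT libraries, all of it CD14. The part of these differences in the HOX values was not tested.

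HOX expression in the knockout-labelled cells had lost most of its anterior and central HOXA part and gained at the posterior end. HOXA3, HOXA5, HOXA6 and HOXA7 fell, by between 3.83-fold and 29.7-fold, while HOXA13, the last gene of the cluster, was 1.71-fold higher. Between them HOXA9 fell slightly and HOXA10 and HOXA11 did not pass the test. In HOXB, HOXB3 and HOXB13 were higher and the other 3 tested members did not pass. HOXC was barely read, and the 9 HOXD genes had no read in any library.

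Of the 39 members, 13 had enough reads to be tested, 8 in HOXA and 5 in HOXB. By edgeR's quasi-likelihood test with Benjamini-Hochberg adjustment over 15351 genes, 3 of the 13 were higher in the knockout-labelled libraries and 5 were lower at an adjusted p below 0.05. Over all tested genes, 12.0% were called higher and 12.4% lower, 24.3% in either direction. At a fold change of at least 4 the lower calls were HOXA5, HOXA6 and HOXA7, against 1.41% of all tested genes, and no HOX gene was that much higher, against 0.951%. Group values without overlap were found above WT for 3 tested members and below WT for 6, against 18.6% of all tested genes in each direction. HOXA3, HOXA5, HOXA6 and HOXA7 passed the filter on low counts through the WT libraries alone, so their calls are a description. The counts among tested members describe those members and are not a rate for the family. The other 9 tested members passed in both groups. The median log2 fold change was -1.11 over the 8 tested HOXA genes, 0.38 over the 5 tested HOXB genes and 0.00 over all tested genes. The HOXA median includes the 4 genes that passed the filter through WT alone, so it too is only a description. Over HOXA9 to HOXA13, which passed in both groups, the median was -0.13. In bulk RNA, fewer cells that use a gene and less RNA per cell cannot be told apart.

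**Figure D1:**
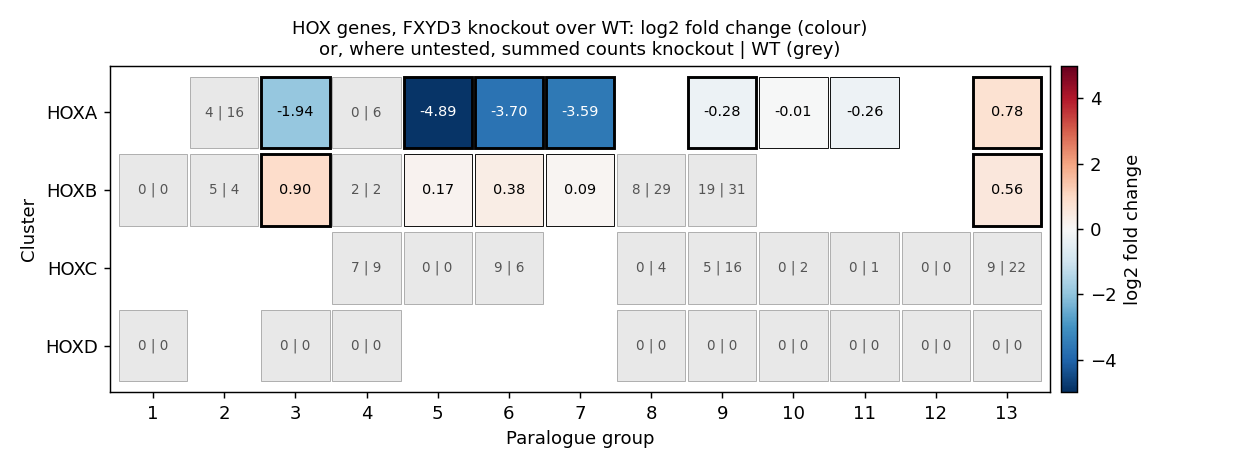
HOX genes by cluster (rows) and paralogue group (columns). Coloured cells give the log2 fold change, knockout-labelled over WT, of the 13 tested genes, with a thick frame at an adjusted p below 0.05, and grey cells give the summed counts of untested genes, knockout-labelled then WT. The blue cells of HOXA3, HOXA5, HOXA6 and HOXA7 stand beside 0.78 at HOXA13, 0.56 at HOXB13 and 0.90 at HOXB3, and all HOXD cells hold 0.

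The promoters of HOXA7, HOXA9 and HOXA13 are shown because these genes stand on the lower, nearly level and higher stretches of the cluster. Each is the 250 bases before the start site in RefSeq on GRCh38.p14, minus strand, 5′ to 3′, at chr7:27156676-27156925 for HOXA7, chr7:27165538-27165787 for HOXA9 and chr7:27200092-27200341 for HOXA13. Capitals mark the letters CCAAT (or ATTGG on the other strand) and TATAAA (or TTTATA).

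HOXA7: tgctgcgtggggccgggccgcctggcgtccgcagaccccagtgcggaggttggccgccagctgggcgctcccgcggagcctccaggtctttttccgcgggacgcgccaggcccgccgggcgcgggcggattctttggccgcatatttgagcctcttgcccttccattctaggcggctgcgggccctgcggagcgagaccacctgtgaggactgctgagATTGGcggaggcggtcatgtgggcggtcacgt

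HOXA9: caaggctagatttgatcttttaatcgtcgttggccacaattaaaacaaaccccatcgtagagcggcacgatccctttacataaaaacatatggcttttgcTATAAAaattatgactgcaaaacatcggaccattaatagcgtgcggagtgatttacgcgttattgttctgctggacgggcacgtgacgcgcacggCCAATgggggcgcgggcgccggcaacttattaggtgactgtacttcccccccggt

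HOXA13: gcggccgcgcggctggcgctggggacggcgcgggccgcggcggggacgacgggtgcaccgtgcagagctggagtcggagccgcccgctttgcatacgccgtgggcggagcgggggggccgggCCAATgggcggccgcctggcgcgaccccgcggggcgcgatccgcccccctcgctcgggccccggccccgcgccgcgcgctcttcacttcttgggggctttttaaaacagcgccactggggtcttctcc

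The HOXA13 promoter was 78.0% G and C with 40 CpG dinucleotides, and 97.8% of the 35116 promoters in the table had fewer. The HOXA7 promoter was 70.8% G and C with 28 CpG, more than 84.1% of promoters. HOXA9 had 48.8% G and C and 20 CpG, more than 67.6% of promoters, where the median was 11. Each of the promoters holds CCAAT once, as 32% of all promoters do on either strand, and HOXA9 alone of the 3 holds TATAAA, found in 10.7%. TTTATG, the core letters bound by CDX factors, occurred once in the HOXA9 promoter and in 9.64% of all promoters. Matches of letters in these windows are descriptions and not binding sites. Of the 39 members, 20 had a promoter in the table.

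HOXA5, a central HOXA factor, fell furthest. It had 2, 4 and 1 counts in the knockout-labelled libraries, against 75, 80 and 61 in the WT libraries. Those are 0.131 ± 0.0724 CPM in the knockout-labelled libraries and 4.20 ± 0.371 CPM in the WT libraries (SD, n = 3 each), a log2 fold change of -4.89 (SE 0.40, adjusted p = 1.99e-10 by edgeR), and the groups were far apart. The gene lies on GRCh38 chromosome 7 from 27141052 to 27143668, minus strand, and none of its exon bases are shared with another annotated gene.

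HOXA7, the last central gene before HOXA9, had 6, 12 and 9 counts in the knockout-labelled libraries and 110, 98 and 116 in the WT libraries. At 0.512 ± 0.115 CPM in the knockout-labelled libraries and 6.35 ± 0.847 CPM in the WT libraries, its log2 fold change was -3.59 (SE 0.27, adjusted p = 5.6e-11). HOXA6, between HOXA5 and HOXA7, had 1, 1 and 2 counts in the knockout-labelled libraries and 18, 26 and 12 in the WT libraries (log2 fold change -3.70, SE 0.63, adjusted p = 5.85e-05). These 3 central genes had lower values in every knockout-labelled library than in any WT library. HOXA3, an anterior gene of neck and hindbrain patterning, had 8, 6 and 11 counts in the knockout-labelled libraries and 28, 33 and 35 in the WT libraries (log2 fold change -1.94, SE 0.39, adjusted p = 0.000444), with the same separation.

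The strand setting of the counting was not stated, and some of these exons overlap genes on the other strand. HOXA7 shares 62.5% of its exon bases, and HOXA6 shares 40.1%, nearly all with the antisense RNA HOXA-AS3. HOXA-AS3 had 0 counts in the knockout-labelled libraries and 29 in the WT libraries. With the 0 set to a floor of 3 counts over the group, it was 9.78-fold lower. That value leaves out the error of the WT counts. HOXA3 shares 17.9%. How reads in the shared bases of such pairs were counted was not stated, whereas the HOXA5 values, with no shared bases, do not depend on this.

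HOXA2, a hindbrain gene, and HOXA4, a central gene, were too low to test. HOXA2 had 0, 4 and 0 counts in the knockout-labelled libraries and 8, 5 and 3 in the WT libraries, and 1 knockout-labelled library overlapped the WT range. HOXA4 had 0 counts in the knockout-labelled libraries and 6 in the WT libraries, all of them in WT replicate 3. Fitted without a filter on low counts, HOXA2 had an adjusted p of 0.271 and HOXA4 of 0.212.

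As a block, HOXA2 to HOXA7 received 67 counts in the knockout-labelled libraries and 714 in the WT libraries. Their summed level was 1.28 ± 0.160 CPM in the knockout-labelled libraries and 13.9 ± 0.451 CPM in the WT libraries (SD, n = 3 each). The block held 0.823 ± 0.106% of HOXA counts in the knockout-labelled libraries and 9.19 ± 0.493% in the WT libraries. No p is given for these sums, because the members were chosen with results known.

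**Figure D2:**
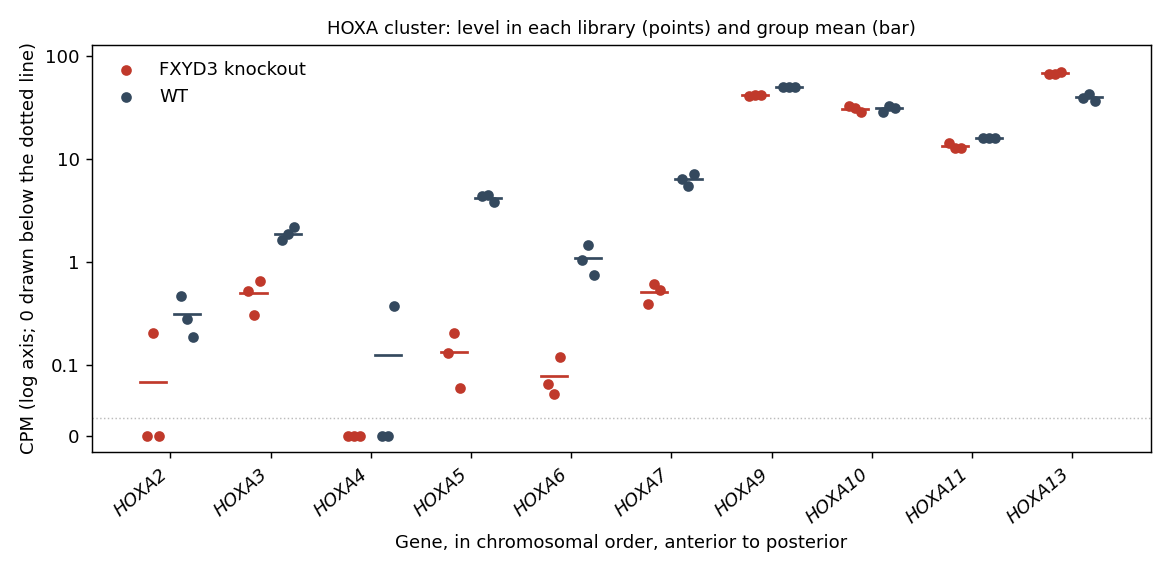
Level of HOXA genes in CPM (log axis, with 0 below the dotted line), in chromosomal order, with a point for each of the 3 knockout-labelled (red) and 3 WT (dark) libraries and a bar at the group mean. HOXA3 to HOXA7 lie lower in the knockout-labelled libraries except HOXA4, which is near 0 in both groups, and HOXA13 lies higher.

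HOXA9, a posterior factor of limb, gut and blood progenitors, had 637, 831 and 703 counts in the knockout-labelled libraries and 878, 904 and 819 in the WT libraries. At 41.1, 42.4 and 41.8 CPM in the knockout-labelled libraries and 50.7, 50.7 and 50.8 CPM in the WT libraries, its fall was small but separate in every library (log2 fold change -0.28, SE 0.07, adjusted p = 0.00468). HOXA10, which patterns the female reproductive tract and the thigh level of the limb, had 32.7, 31.5 and 28.7 CPM in the knockout-labelled libraries and 28.8, 33.2 and 31.4 CPM in the WT libraries. Its groups overlapped, and its log2 fold change of -0.01 had a 95% interval of -0.18 to 0.17 (adjusted p = 0.957).

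HOXA11, a gene of the forearm and kidney, had 14.5, 12.8 and 12.8 CPM in the knockout-labelled libraries and 16.1, 15.9 and 16.0 CPM in the WT libraries. Every knockout-labelled value was lower, but the change did not pass the adjustment (log2 fold change -0.26, SE 0.11, adjusted p = 0.0791). HOXA9, HOXA10 and HOXA11 share 27%, 26.3% and 31.1% of their exon bases with other genes, the last with HOXA11-AS.

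HOXA13, needed for the digits, the genital tubercle and the hindgut, had 1043, 1315 and 1191 counts in the knockout-labelled libraries and 680, 771 and 599 in the WT libraries. The levels were 67.3, 67.2 and 70.8 CPM in the knockout-labelled libraries and 39.3, 43.2 and 37.1 CPM in the WT libraries. The log2 fold change was 0.78 (SE 0.07, adjusted p = 4.38e-09), and no library of one group reached the other. Only 1.69% of HOXA13 exon bases are shared with another gene, HOTTIP.

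Ratios between genes of the cluster do not depend on the normalisation. HOXA7 was at 1.22 ± 0.256 counts per 100 HOXA9 counts in the knockout-labelled libraries, against 12.5 ± 1.66 in the WT libraries (SD, n = 3 each; log2 difference -3.37). HOXA5 per 100 HOXA9 was 0.313 in the knockout-labelled libraries and 8.28 in the WT libraries (log2 difference -4.89). HOXA13 per 100 HOXA9 was 164 ± 5.59 in the knockout-labelled libraries and 78.6 ± 6.16 in the WT libraries, and HOXA13 per 100 HOXA11 was 514 ± 43.8 in the knockout-labelled libraries and 249.7 ± 20.6 in the WT libraries. In these 4 ratios the groups did not overlap, which is a description because the pairs were chosen with results known. An exact permutation test gave p = 0.1 for each ratio, the smallest possible with 3 against 3 libraries, so it cannot decide the question.

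Per length of the gene, HOXA9 was the most highly expressed HOX gene of the WT cells and level with HOXA13 in the knockout-labelled cells. HOXA9 had 13.8 ± 0.221 and HOXA13 13.5 ± 0.409 RPKM (CPM per kilobase of gene) in the knockout-labelled libraries, a difference within their spread. In the WT libraries HOXA9 had 16.7 ± 0.0124 RPKM and HOXA13 7.84 ± 0.610 RPKM, beside 8.39 ± 0.597 RPKM for HOXA10, a pair that also lay within its spread. HOXA10 followed in the knockout-labelled libraries at 8.34 ± 0.552 RPKM. HOXA11 had 5.80 ± 0.406 RPKM in the knockout-labelled and 6.92 ± 0.0396 RPKM in the WT libraries. HOXB7, the highest HOXB gene, had 5.61 ± 0.706 RPKM in the knockout-labelled and 5.31 ± 1.09 RPKM in the WT libraries, and lay within the spread of HOXA11 in the knockout-labelled libraries.

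HOXB13, the posterior end of the HOXB cluster and a marker of distal colon and prostate, was higher in the knockout-labelled cells. It had 158, 183 and 134 counts in the knockout-labelled libraries and 108, 104 and 106 in the WT libraries. The levels were 10.2, 9.35 and 7.97 CPM in the knockout-labelled libraries and 6.24, 5.83 and 6.57 CPM in the WT libraries (log2 fold change 0.56, SE 0.15, adjusted p = 0.00511), and the groups did not overlap. HOXB13 shares no exon bases with another gene.

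HOXB3, an anterior HOXB gene, had 46, 49 and 46 counts in the knockout-labelled libraries and 23, 35 and 17 in the WT libraries. These were 2.74 ± 0.233 CPM in knockout-labelled and 1.45 ± 0.466 CPM in WT libraries, without overlap (log2 fold change 0.90, SE 0.29, adjusted p = 0.0218). This call rests on few reads: the adjusted p was 0.0878 with DESeq2, 0.0756 without knockout replicate 1, 0.0554 without knockout replicate 3, 0.0817 without WT replicate 1 and 0.104 without WT replicate 3. Its 13.2% of shared exon bases include opposite-strand genes.

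HOXB7, a central gene expressed in many epithelial cancers, had 8.13, 9.81 and 7.79 CPM in the knockout-labelled libraries and 9.64, 6.34 and 8.37 CPM in the WT libraries. The groups overlapped, and the log2 fold change of 0.09 had a 95% interval of -0.23 to 0.40 (adjusted p = 0.739). HOXB5 and HOXB6, at between 0.896 and 1.22 CPM in group means, overlapped likewise, with log2 fold changes of 0.17 and 0.38 and adjusted p of 0.808 and 0.511.

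The other 5 HOXB genes were not tested. HOXB8 had 2, 3 and 3 counts in the knockout-labelled libraries against 12, 4 and 13 in the WT libraries, without overlap. Without a filter on low counts, the edgeR fit gave HOXB8 an adjusted p of 0.0923. HOXB9 had 2, 5 and 12 counts in the knockout-labelled against 8, 6 and 17 in the WT libraries. HOXB2 had 5 counts in all in the knockout-labelled and 4 in the WT libraries, HOXB4 had 2 in each group, and HOXB1, a hindbrain gene, was at 0.

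**Figure D3:**
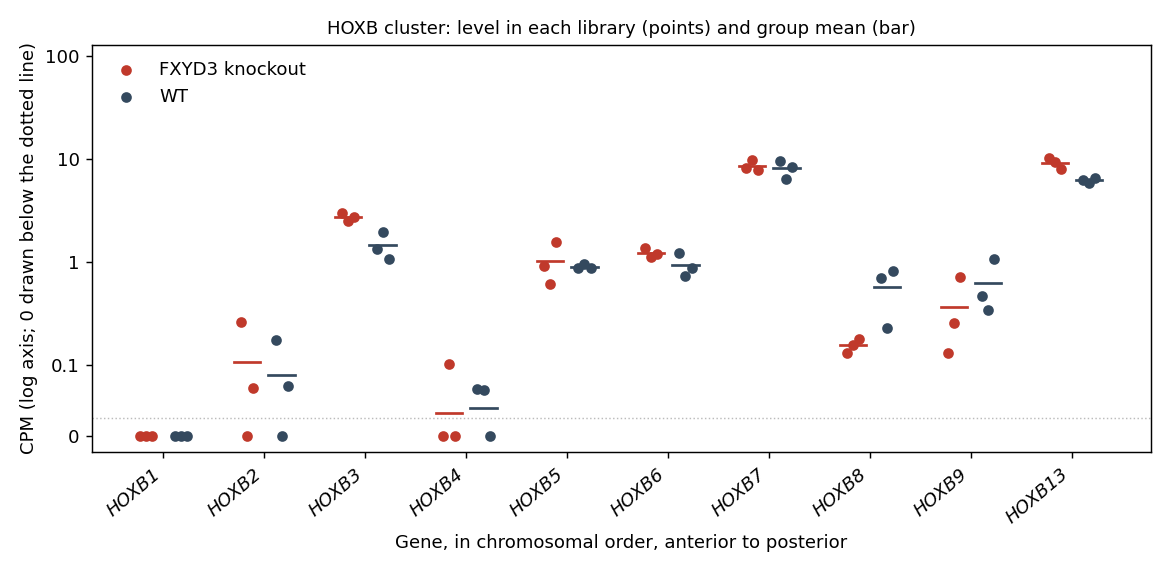
Level of each HOXB gene in CPM (log axis, with 0 below the dotted line), in chromosomal order, with a point for each of the 3 knockout-labelled (red) and 3 WT (dark) libraries and a bar at the group mean. HOXB3 and HOXB13 lie higher in the knockout-labelled libraries, HOXB5, HOXB6 and HOXB7 overlap, and HOXB8 lies lower at few reads.

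The HOXC genes together had 30 counts in the knockout-labelled libraries and 60 in the WT libraries, and none was tested. The most read was HOXC13, a factor of hair and nail, with 3, 1 and 5 counts in the knockout-labelled libraries and 6, 7 and 9 in the WT libraries. HOXC9 had 2, 2 and 1 in the knockout-labelled libraries and 3, 6 and 7 in the WT libraries, and both genes had lower values in every knockout-labelled library. Without a filter on low counts, the edgeR fit gave an adjusted p of 0.383 for HOXC13 and 0.364 for HOXC9. In all, the knockout-labelled libraries held 7 counts of HOXC4, 9 of HOXC6 and 0 of HOXC8, HOXC10 and HOXC11. The WT libraries held 9 counts of HOXC4, 6 of HOXC6, 4 of HOXC8, 2 of HOXC10 and 1 of HOXC11. HOXC5 and HOXC12 were at 0. At this depth 3 counts over a group, the limit that a count of 0 allows, are 0.0578 CPM in the knockout-labelled and 0.0585 CPM in the WT libraries. All 9 HOXD genes, from HOXD1 to HOXD13, had no read in either group, which allows levels up to those limits for reads the counting kept. HOXD4, HOXD3 and HOXD1 share 80.5%, 74.1% and 58.1% of their exon bases with other genes, and HOXC5 shares 59.9%. How the counting treated reads in shared bases was not stated, so the limits do not hold for those bases.

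Summed over all members, HOX transcripts made up 179.8 ± 1.44 CPM in the knockout-labelled and 171.9 ± 2.24 CPM in the WT libraries. The HOXA cluster held 86.7 ± 0.414% of HOX counts in the knockout-labelled and 88.3 ± 1.35% in the WT libraries, and HOXB held 13% (SD 0.500) in the knockout-labelled and 11.0 ± 1.42% in the WT libraries. HOXA9 to HOXA13 summed to 154.5 ± 0.870 CPM in the knockout-labelled libraries and 137.7 ± 4.59 CPM in the WT libraries.

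Of 57 noncoding genes listed inside the clusters, 4 were tested and 2 were called, both higher in the knockout-labelled libraries, where 12.0% of all tested genes were higher. HOTTIP is a long noncoding RNA known for acting with MLL complexes on posterior HOXA genes. In RefSeq its start site lies 330 bases from that of HOXA13, on the other strand, while the counted HOTTIP gene overlaps HOXA13. HOTTIP had 12.5, 12.2 and 12.6 CPM in the knockout-labelled libraries and 7.62, 7.74 and 6.51 CPM in the WT libraries. Its log2 fold change was 0.77 (SE 0.13, adjusted p = 4.1e-05), and the groups did not overlap. AC004080.2, an unnamed noncoding gene of the HOXA cluster, had 5.68, 5.62 and 5.06 CPM in the knockout-labelled libraries and 2.19, 2.47 and 2.79 CPM in the WT libraries (log2 fold change 1.13, SE 0.20, adjusted p = 8.9e-05). HOXA10-AS and HOXA11-AS, antisense to their namesakes, did not pass, with log2 fold changes of 0.19 and 0.12 and adjusted p of 0.708 and 0.568.

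At the anterior side, HOXA-AS2 had 7 counts in the knockout-labelled libraries and 30 in the WT libraries. HOXB-AS3, in the central HOXB cluster, had 30 in the knockout-labelled libraries and 10 in the WT libraries. HOTAIR, the HOXC noncoding RNA known for acting on HOXD, had 13 in the knockout-labelled libraries and 7 in the WT libraries, and HAGLR of the HOXD cluster had 1 in the knockout-labelled libraries and 13 in the WT libraries. These were too low to test. Fitted by edgeR without a filter on low counts, HOXA-AS3 had an adjusted p of 7.83e-05, HOXA-AS2 of 0.0579 and HOXB-AS3 of 0.173.

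Of the 24 flanking genes, the 3 nearest tested protein-coding genes on each side of each cluster, 5 were called at an adjusted p below 0.05. All 5 were higher in the knockout-labelled libraries. Over all tested genes, 12.0% were called higher and 24.3% in either direction. EVX1, a homeobox gene 42.6 kb beyond HOXA13 and related to the HOX genes, had 8.71, 7.61 and 9.87 CPM in the knockout-labelled libraries and 3.29, 2.92 and 3.84 CPM in the WT libraries (log2 fold change 1.38, SE 0.17, adjusted p = 5.58e-07). HIBADH, an enzyme of valine breakdown next to it, had a log2 fold change of 0.30 (SE 0.07, adjusted p = 0.00322). On the anterior side of HOXA, SKAP2, a signalling adaptor, gave -0.08 (adjusted p = 0.528).

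Beside HOXB1 at 98.3 kb, SKAP1, a T cell adaptor, had 11.4, 9.24 and 9.40 CPM in the knockout-labelled libraries and 1.73, 1.12 and 0.868 CPM in the WT libraries (log2 fold change 2.99, SE 0.21, adjusted p = 1.46e-11). Beside HOXB13 at 33.1 kb, TTLL6, a tubulin polyglutamylase, had 1.68, 1.28 and 1.01 CPM in the knockout-labelled libraries and 0.116, 0.280 and 0.310 CPM in the WT libraries (log2 fold change 2.45, SE 0.49, adjusted p = 0.000403). Both genes were higher in every knockout-labelled library than in any WT library. TTLL6 lay below the cut of the filter on low counts, 0.585 CPM, in every WT library. It was therefore tested, and listed as a flanking gene, through the knockout-labelled libraries alone, so its call is a description. CALCOCO2, the fifth call, had a log2 fold change of 0.17 (adjusted p = 0.0498), which was no longer called in 11 of 16 alternatives, among them leaving out knockout replicate 1, 2 or 3 (0.134, 0.0727 and 0.144) or WT replicate 1 or 2 (0.183 and 0.114). The 12 genes beside HOXC and HOXD had log2 fold changes from -0.14 to 0.20 and did not pass, with the lowest adjusted p at 0.0667 for CALCOCO1.

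**Figure D4:**
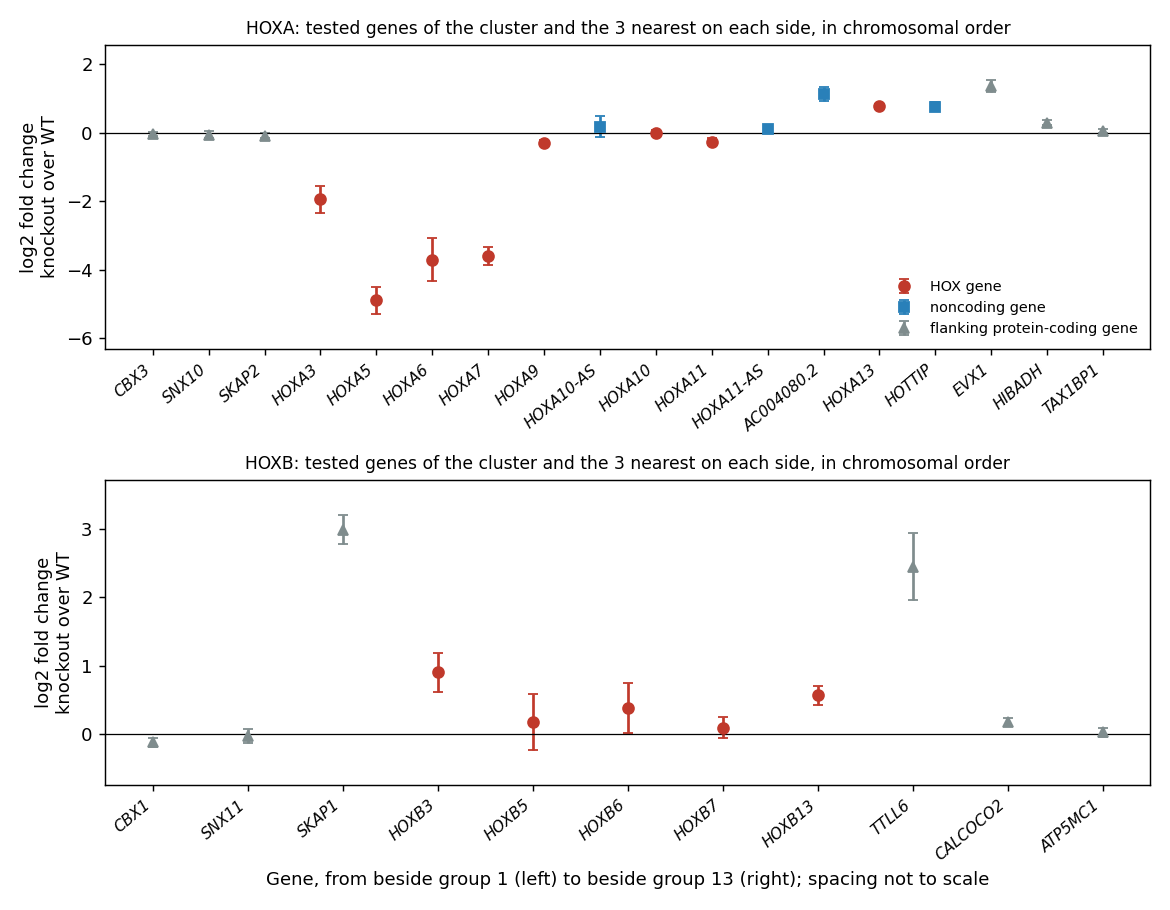
Log2 fold change, knockout-labelled over WT, of the tested HOX genes (circles), noncoding genes (squares) and flanking protein-coding genes (triangles) of HOXA (upper panel) and HOXB (lower panel), in chromosomal order and not to scale, with bars for the SE. In HOXA the values lie between -1.94 and -4.89 from HOXA3 to HOXA7, near 0 from HOXA9 to HOXA11 and at 0.77 to 1.38 for HOTTIP, HOXA13, AC004080.2 and EVX1, and in HOXB the highest values are those of the flanking SKAP1 and TTLL6.

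CDX1, a ParaHox factor that specifies intestine together with CDX2, fell, with 120, 126 and 109 CPM in the knockout-labelled libraries and 190, 175 and 203 CPM in the WT libraries (log2 fold change -0.67, SE 0.06, adjusted p = 6.48e-09), and its groups did not overlap. CDX2 had 117, 123 and 117 CPM in the knockout-labelled libraries and 124, 120 and 141 CPM in the WT libraries (log2 fold change -0.11, SE 0.06, adjusted p = 0.231), and its groups overlapped. CDX1 was the only one of 3 tested ParaHox genes that was called, against 24.3% of all tested genes.

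Among the 9 cofactors that bind DNA beside HOX proteins, 6 were tested and 1 was called, PBX2, against 24.3% of all tested genes, with a median log2 fold change of -0.05. It had 43.1 ± 0.335 CPM in the knockout-labelled and 55.5 ± 2.06 CPM in the WT libraries (log2 fold change -0.36, SE 0.07, adjusted p = 0.000338). MEIS1 had a log2 fold change of 0.01 (adjusted p = 0.991), and MEIS2 was at 0 in every library.

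Of 32 Polycomb genes, all tested, 3 were higher and 4 lower, and the median log2 fold change was -0.06. PHC1, a subunit of Polycomb repressive complex 1, fell to 4 counts in all in the knockout-labelled libraries, against 114 in the WT libraries. Its levels were 0.194, 0 and 0.0595 CPM in the knockout-labelled libraries and 1.85, 2.19 and 2.67 CPM in the WT libraries (log2 fold change -4.72, SE 0.57, adjusted p = 2.65e-07), without overlap. PHC1 passed the filter on low counts through the WT libraries alone, so its call is a description. The value is uncertain in that PHC1 has a listed pseudogene copy, PHC1P1, with 0 counts in the knockout-labelled libraries and 8 in the WT libraries.

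CBX6, a chromodomain subunit of the same complex, was higher at 31.2, 36.5 and 36.4 CPM in the knockout-labelled libraries and 16.8, 17.4 and 19.2 CPM in the WT libraries (log2 fold change 0.96, SE 0.09, adjusted p = 5.34e-09). PCGF5, a ring finger subunit, was higher at a log2 fold change of 0.40, and PHF1 and PHC2 fell by 0.58 and 0.29 on the log2 scale. EZH2, the H3K27 methyltransferase, had 95.9 ± 0.842 CPM in the knockout-labelled libraries and 99.4 ± 7.30 CPM in the WT libraries (log2 fold change -0.05, adjusted p = 0.599). Called members were 7 of 32, near the 24.3% of all tested genes.

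Of 18 MLL complex, elongation and H3K27 demethylase genes, 4 were higher and 1 was lower, near the 24.3% called over all tested genes, with a median log2 fold change of 0.02. KDM6B, an H3K27 demethylase, had 75.6 ± 5.57 CPM in the knockout-labelled and 55.5 ± 4.19 CPM in the WT libraries (log2 fold change 0.45, SE 0.07, adjusted p = 4.24e-05). AFF1 and KMT2C, a partner of elongation complexes and a methyltransferase, were higher by 0.35 and 0.33 on the log2 scale. KMT2A, the MLL protein itself, had a log2 fold change of 0.05 (adjusted p = 0.740). MLLT3 was higher by 0.28 (adjusted p = 0.0246), but its adjusted p was 0.191 without knockout replicate 1 and 0.0932 without WT replicate 3. PSIP1, a chromatin tether of MLL complexes, had a log2 fold change of -0.18 (adjusted p = 0.019), with adjusted p of 0.0601 and 0.0709 without knockout replicates 2 and 3.

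Of 11 CTCF and cohesin genes, all tested, 1 was called, lower, against 24.3% of all tested genes. CTCF, which binds boundaries inside HOX clusters, had 87.8 ± 2.22 CPM in the knockout-labelled libraries and 86.1 ± 0.627 CPM in the WT libraries (log2 fold change 0.03, adjusted p = 0.786). RAD21, a cohesin subunit, had a log2 fold change of -0.16 (adjusted p = 0.0396). That call was lost in 9 of 16 alternatives, including leaving out knockout replicate 1, 2 or 3 or WT replicate 1 or 2, where the adjusted p was 0.108, 0.0988, 0.085, 0.134 and 0.079.

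Of 19 retinoic acid genes, 9 were tested and 2 were called, both higher, and the median log2 fold change was 0.10. Over all tested genes, 12.0% were called higher and 24.3% in either direction. ALDH1A1, which makes retinoic acid from retinal, had 300.1, 285 and 288 CPM in the knockout-labelled libraries and 147, 136 and 154 CPM in the WT libraries (log2 fold change 1.0, SE 0.06, adjusted p = 2.09e-13). CRABP2, a retinoic acid carrier, had 2.49 ± 0.720 CPM in the knockout-labelled libraries and 1.21 ± 0.296 CPM in the WT libraries (log2 fold change 1.05, adjusted p = 0.0143). Its adjusted p was 0.137 without knockout replicate 2 and 0.079 without WT replicate 1.

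Of 112 genes in other homeobox families, 36 were tested, 9 were higher and 9 lower, against 24.3% called over all tested genes, with a median log2 fold change of 0.05. Beside EVX1, EN1, a patterning gene of midbrain and limb, was higher with 50.1 ± 4.17 CPM in the knockout-labelled libraries and 33.9 ± 1.78 CPM in the WT libraries (log2 fold change 0.56, adjusted p = 4.56e-06). PITX1, a hindlimb gene, fell with 82.3 ± 1.81 CPM in the knockout-labelled libraries and 115.7 ± 13.8 CPM in the WT libraries (log2 fold change -0.49, adjusted p = 8.56e-06). SIX4, a homeobox factor of muscle development, had 4 counts in the knockout-labelled and 59 in the WT libraries (log2 fold change -3.78, adjusted p = 3.87e-05). SIX4 passed the filter on low counts through the WT libraries alone, so its call is a description.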

How the data were processed

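The authors deposited 1 table of read counts per gene, whole numbers without normalization, for 6 libraries. The submitters' processing notes name HISAT2 2.0.5 and featureCounts 1.5.0-p3; annotation and strand setting are not given in those notes. Those notes list a mouse build, but gene identifiers and coordinates in the table are human, as in GENCODE release 29 on GRCh38, and coordinates are those of the table. Per the labels' protocols, TRIzol lysates went into a NEBNext Ultra kit. Rows without a gene name, 232 of 58967 with 0.13 to 0.25% of counts, were left out.

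Counts were tested with edgeR 4.0.16 in R 4.3.3: TMM normalization, filterByExpr with a minimum count of 10, robust quasi-likelihood fit, two-sided test of 3 knockout-labelled against 3 WT libraries, and Benjamini-Hochberg adjustment over 15351 genes, called at 0.05. CPM are TMM-normalized; RPKM are CPM divided by the table's gene length. Counts at 0 were given a floor of 3 counts over a group, and that floor covers counting error only. The SE of a fold change was derived from the edgeR test, as the absolute log2 fold change divided by the square root of its F statistic. Intervals are symmetric 95% intervals built on that SE, and they include the spread between libraries. They are approximate, most of all for genes with few reads in a group. Promoters came from RefSeq and exon overlap from GENCODE. No protein sequence table was used, so the promoters stand in for the planned homeodomains, a choice made after values were seen. Python 3.11.15 was used for tables and plots.

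The members and lists were chosen with earlier results of these data known. Values in every library were given for called members and those with a mean of at least 5 CPM. From each list up to 5 called genes by smallest p were named, or the most abundant where none was called, plus CDX1, CDX2, tested noncoding genes and FXYD3; MEIS1, MEIS2, EZH2, KMT2A, CTCF and the untested noncoding genes were added after seeing values. The fit was tested on simulated data. Alternatives were other normalizations, filters, DESeq2 1.42.0, limma voom 3.58.1, a block for replicate number, and leaving out each library in turn. Some genes are not reported here.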

Additional observations from a re-analysis of the deposited data

How the results depend on the processing

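The calls of HOXA3, HOXA5, HOXA6, HOXA7, HOXA9, HOXA13 and HOXB13 kept their direction and an adjusted p below 0.05 in every alternative in which they were tested, with log2 fold changes from -5.39 to -4.56 for HOXA5, -3.75 to -3.44 for HOXA7 and 0.73 to 0.84 for HOXA13. HOXB3 was the one HOX call that was lost, as given above. HOXA3, HOXA5, HOXA6 and HOXA7 passed the filter on low counts through the WT libraries alone. Their calls are a description, and refits of the same libraries add no separate evidence. With a stricter filter, a mean of at least 50 counts, 2 HOX genes rather than 5 were called lower, since HOXA3, HOXA5 and HOXA6 have fewer reads, and 11 rather than 17 genes of the companion lists. Divided by full gene length, shared bases included, HOXA held 80.6% of HOX reads in knockout-labelled and 83.5% in WT libraries. HOXB held 19.0% in knockout-labelled and 15.5% in WT libraries. HOXA2 to HOXA7 then held 1.18% of HOXA reads in knockout-labelled and 14.1% in WT libraries. Library numbers did not pair the samples: same-numbered libraries' deviations correlated at 0.023, -0.075 and -0.096. With the replicate block, 3 HOX genes were called higher and 5 lower, and over all genes 1478 were higher and 1475 lower. Leaving out 1 library at a time gave 2 to 3 HOX genes higher and 5 to 6 lower. Genes with under about 10 counts per library in both groups were too low for the main fit and are hard to judge at this depth.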
